A study of Mus musculus with 8 samples.

Results

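The meiotic telomere attachment complex joins the ends of chromosomes to the nuclear envelope, and its transcripts were measured in whole testes of *Tra2b-cPEko* and wild type mice at P12, in 4 mice of each genotype. Its 7 genes, *Majin*, *Terb1*, *Terb2*, *Sun1*, *Sun2*, *Kash5* and *Spdya*, were taken by symbol from the 40840 genes of the count tables, and all 7 passed the filter on low counts. According to the study's methods, the mice called wild type were *Tra2bPE* fl/+ without Cre, while *Tra2b-cPEko* mice were *Tra2b* fl/- and carried the *Vasa-Cre* transgene. The background of both was C57BL/6J. A poison exon is an exon whose inclusion stops the mRNA from making full-length protein. The *Vasa-Cre* recombinase acts only in germ cells, so the floxed copy of the *Tra2b* poison exon is deleted there and kept in the somatic cells of the same testes. In the study's breeding scheme the minus allele is an inherited deletion of this exon. Somatic cells of *Tra2b-cPEko* mice therefore keep the exon on the floxed allele only, unlike those of wild type mice. The labels describe the cells as mixed and give no litter or batch.

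In early meiotic prophase each telomere is fixed to the inner nuclear membrane, and cytoplasmic motors then pull the attached chromosome ends along the envelope so that homologues can find each other. MAJIN, TERB1 and TERB2 form the membrane-bound anchor, in which TERB1 contacts the shelterin protein TRF1 and MAJIN carries the transmembrane segment. SUN1 and SUN2 span the inner membrane, KASH5 spans the outer membrane and binds dynein, and Speedy A, the product of *Spdya*, brings active CDK2 to the telomere.

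Of the 7 genes, none was called by edgeR's quasi-likelihood test at an adjusted p under 0.05, where 0.157% of the 19104 genes tested were called. The mean of *Majin* was 26.8% lower in *Tra2b-cPEko* testes and that of *Terb1* 14.4% higher, and these were the members with an unadjusted edgeR p under 0.05, which 7.07% of all genes reached as lower and 8.22% as higher. DESeq2 called *Majin* and no other member, with 1.14% of its 18149 genes called as lower. The values of the genotypes overlapped for all 7 genes, while 8.54% of all genes tested did not overlap. The median log2 fold change of the 7 was -0.17, with 5 lower and 2 higher, against -0.0011 over all genes tested.

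Reads on genes numbered between 36757386 and 59101569 per library. *Tra2b* itself was at 163.8 ± 8.93 CPM in wild type testes and at 197.8 ± 8.49 CPM with the deletion (adjusted p = 0.0552 from edgeR). CPM are counts scaled to a common library size after normalization, given as mean ± SD over 4 mice. The genotypes did not overlap (155.8 to 175.6 against 190.3 to 208.9 CPM), as for 8.54% of all genes tested. The study, using DESeq2, reported *Tra2b* as significantly raised. Counts over the whole gene do not show the exon deletion and so do not check the labels. Wild type mice A and B stood apart in markers of pachytene spermatocytes, with a mean log2 CPM over 9 genes of 4.61 and 4.69, where the other 6 mice lay between 3.33 and 3.69. Of those 9 markers, whose sum spanned 268 to 466 CPM among wild type mice and 292 to 352 CPM in *Tra2b-cPEko* mice, 0 were called by edgeR and 2 were lower at an unadjusted p under 0.05. Another 3 of the 12 listed (*Pgk2*, *H1f6* and *Pou5f2*) did not pass the filter, with at most 15 reads in a library. The mean over 21 leptotene and zygotene markers was also highest in those mice, at 6.55 and 6.39 against 6.11 to 6.24 elsewhere. Differentiating spermatogonia markers spanned 6.34 to 6.38 in wild type mice and 6.11 to 6.24 in *Tra2b-cPEko* mice, without overlap. All 5 of these were lower, and *Sohlh1*, a spermatogonial transcription factor gene, was called by edgeR (log2 fold change -0.34, adjusted p = 0.0341). The 10 Sertoli cell markers, whose sum was 5097 to 5657 CPM in wild type mice against 5216 to 5889 CPM, overlapped between the genotypes. In bulk tissue, fewer cells of a type and less RNA per cell cannot be told apart. The edgeR fold changes, ratios, relative levels and spread of the members are also given without wild type A and B. So are the counts of the pathway lists. This alternative was chosen after seeing the data, and it does not tell cell number and RNA per cell apart either. Both mice were also the highest in *Majin*, *Terb2*, *Sun1*, *Kash5* and *Spdya*, so leaving them out by itself raises those fold changes. Without them 2 wild type mice face 4 *Tra2b-cPEko* mice.

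*Majin* encodes the membrane-anchored subunit of the telomere anchor and lies on chromosome 19 of GRCm39 from 6234367 to 6274260, on the forward strand, with no other annotated gene overlapping it. The study chose *Majin* on these samples as a meiosis gene of lower expression, so its direction here is not independent evidence. The study also designed RT-qPCR primers for it, shown here because they locate the part of the *Majin* mRNA that the study assayed apart from these reads. The forward primer matched exon 2 at chr19:6245756-6245775 on the forward strand and the reverse primer exon 3 at chr19:6256270-6256289 on the reverse strand. They enclose 97 bases of 4 of the 5 annotated transcripts and 95 of the other, and cross an intron. Both are printed 5′ to 3′, in lower case throughout.
*Majin* forward primer: ttcatgcaggacccaatgtg
*Majin* reverse primer: agctcctggacgatgacttc

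In wild type mice A, B, C and D, *Majin* was at 24.0, 22.6, 14.9 and 16.9 CPM. In *Tra2b-cPEko* mice A, B, C and D it was at 14.4, 15.8, 13.7 and 13.5 CPM. Wild type A and B were therefore far above every *Tra2b-cPEko* mouse, D was slightly above them all, and C lay inside their range, which is the only overlap. Between 496 and 1062 reads per library stood behind these values. Wild type testes averaged 19.6 ± 4.42 CPM (SD, n = 4), compared to 14.3 ± 1.04 CPM (SD, n = 4) after deletion of the poison exon. This is a log2 fold change of -0.45 (SE 0.14, 95% interval -0.77 to -0.13, edgeR adjusted p = 0.201), and the exact two-sided permutation test gave p = 0.0571. The DESeq2 estimate was equal to 2 decimals, and its adjusted p of 0.0462 lay just under the threshold of 0.05.

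The DESeq2 call on *Majin* was lost without any 1 of 5 mice. Without wild type A (adjusted p = 0.282 from DESeq2) or wild type B (0.212) the log2 fold change was also smaller, at -0.34 and -0.38. Without *Tra2b-cPEko* A (adjusted p = 0.137 from DESeq2), C (0.186) or D (0.173) it stayed at -0.45, -0.43 and -0.42. It was kept without wild type C (adjusted p = 5.17e-04 from DESeq2), wild type D (0.0246) or *Tra2b-cPEko* B (0.0381). With both wild type A and B left out, the log2 fold change of *Majin* shrank to -0.15 (95% interval -0.35 to 0.06, adjusted p = 0.605 from edgeR).

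*Terb1* encodes the subunit that links the anchor to shelterin and lies on chromosome 8 of GRCm39 from 105173351 to 105236545, on the reverse strand. It was at 34.5, 26.5, 26.6 and 30.2 CPM in wild type mice A to D and at 35.0, 33.1, 34.0 and 32.7 CPM in *Tra2b-cPEko* mice A to D. All 4 *Tra2b-cPEko* mice were above wild type B, C and D, and only wild type A reached into their range. Wild type testes averaged 29.5 ± 3.78 CPM (SD, n = 4), compared to 33.7 ± 1.02 CPM (SD, n = 4) in the deletion mice. On the log2 scale the fold change was 0.19 (SE 0.079, 95% interval 0.02 to 0.36), with an adjusted p of 0.271 from edgeR and 0.236 from DESeq2, and an exact permutation p of 0.114. Without wild type A and B it was 0.25 (95% interval 0.10 to 0.39, adjusted p = 0.227 from edgeR), and without wild type A alone DESeq2 called it (adjusted p = 0.0193). Its direction was thus opposite to that of *Majin*, with the products of both genes in the same anchor.

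*Terb2*, on chromosome 2 of GRCm39 from 122016728 to 122052785 on the forward strand, encodes the subunit that bridges TERB1 and MAJIN. Its counts were the lowest of the 7, from 276 to 496 reads per library. It was at 11.2, 10.0, 7.26 and 7.89 CPM in wild type A to D and at 8.34, 8.77, 7.70 and 7.52 CPM in *Tra2b-cPEko* A to D. Wild type A and B were again the highest mice, and C was the lowest of all 8. Its log2 fold change was -0.17 (95% interval -0.45 to 0.11, adjusted p = 0.557 from edgeR), and without wild type A and B it was 0.09 (adjusted p = 0.792 from edgeR), with the direction turned.

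**Figure D1:**
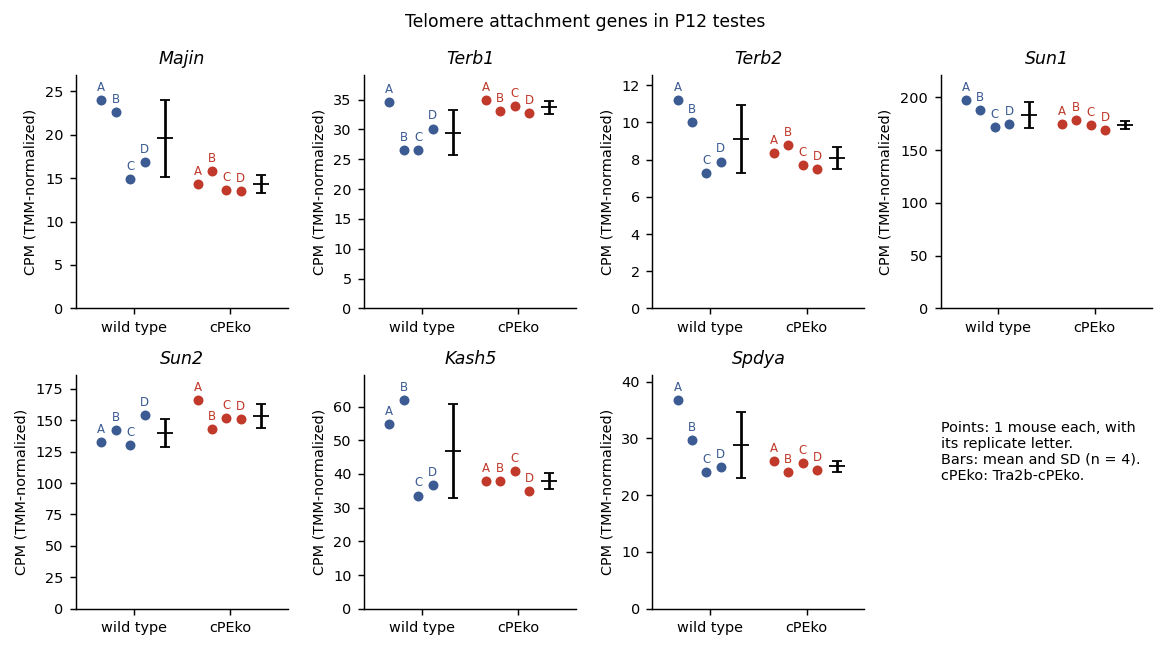
Levels of the 7 genes in CPM after TMM normalization, in a panel for each gene, with points for the 4 wild type (blue) and 4 *Tra2b-cPEko* (red) mice by replicate letter and bars for mean and SD. Wild type A and B lie above the other wild type mice in *Majin* (24.0 and 22.6 against 14.9 and 16.9 CPM), *Terb2*, *Sun1*, *Kash5* and *Spdya*, and the genotypes overlap in every panel.

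*Kash5*, on chromosome 7 of GRCm39 from 44831699 to 44854504 on the reverse strand, encodes the outer membrane protein that recruits dynein and is made in spermatocytes. It was at 55.0, 62.0, 33.6 and 36.7 CPM in wild type A to D. In *Tra2b-cPEko* A to D it was at 38.0, 37.9, 40.8 and 35.1 CPM. Wild type A and B were far above the other 6 mice, and wild type C was the lowest of all, so that the *Tra2b-cPEko* mice lay between them. For *Kash5* the log2 fold change was -0.30 (95% interval -0.78 to 0.18, adjusted p = 0.527 from edgeR, exact permutation p = 0.4), and without wild type A and B it turned to 0.11 (adjusted p = 0.576 from edgeR). DESeq2 called *Kash5* as lower in 1 fit, that without wild type C (adjusted p = 0.0300).

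*Sun1*, on chromosome 5 of GRCm39 from 139185970 to 139235606 on the forward strand, encodes the main inner membrane partner of the anchor in spermatocytes and is also expressed in somatic cells. It was at 197.7, 188.0, 171.9 and 174.3 CPM in wild type A to D and at 175.0, 178.0, 173.7 and 169.0 CPM in *Tra2b-cPEko* A to D. Only wild type A and B were above the *Tra2b-cPEko* range, and its log2 fold change was -0.07 (95% interval -0.18 to 0.03, adjusted p = 0.502 from edgeR), and 0.0086 without wild type A and B.

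*Sun2*, on chromosome 15 of GRCm39 from 79608271 to 79626768 on the reverse strand, encodes a second SUN protein that many tissues share. It was at 132.4, 142.5, 130.1 and 154.2 CPM in wild type A to D and at 166.1, 143.2, 151.7 and 151.3 CPM in *Tra2b-cPEko* A to D. Like *Terb1* it was highest in *Tra2b-cPEko* A rather than in wild type A or B, and 3 of the 4 wild type mice were below every *Tra2b-cPEko* mouse. Over the 8 mice its log2 fold change was 0.13 (95% interval -0.00050 to 0.26, adjusted p = 0.328 from edgeR), and 0.11 without wild type A and B.

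*Spdya*, on chromosome 17 of GRCm39 from 71859027 to 71896534 on the forward strand, encodes the CDK2 activator Speedy A. It was at 36.8, 29.7, 24.1 and 25.0 CPM in wild type A to D and at 26.0, 24.1, 25.7 and 24.4 CPM in *Tra2b-cPEko* A to D. As with *Majin*, wild type A and B were the highest mice and wild type C and D lay close to the *Tra2b-cPEko* group. Here the log2 fold change was -0.20 (95% interval -0.47 to 0.06, adjusted p = 0.441 from edgeR), and 0.03 without wild type A and B. *Spdya* shares exonic bases with *Trmt61b* on the other strand (mean 5.11 CPM), and *Sun2* overlaps *Gm16576* (8.04 CPM), so some reads could belong to those genes if the counting ignored strand. Further exonic overlaps were with genes not among those tested. *Gm75720*, *4930520M14Rik* and *Gm31097* lie opposite *Terb2*, *Sun1* and *Kash5*. *Mettl4-ps1* lies on the same strand as *Spdya*, so counting by strand would not tell their shared reads apart.

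**Figure D2:**
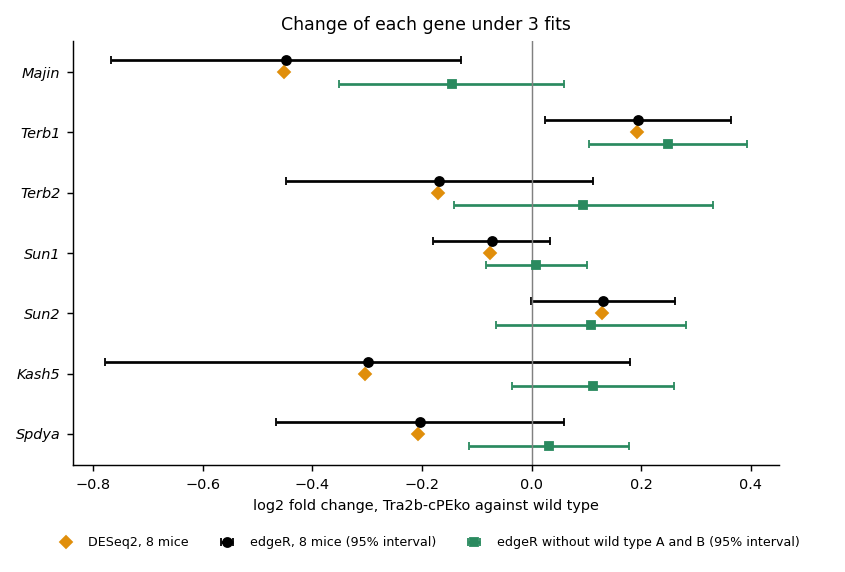
Log2 fold change of each gene, *Tra2b-cPEko* against wild type, from edgeR on 8 mice (black, 95% interval), DESeq2 on 8 mice (orange) and edgeR without wild type A and B (green, 95% interval). *Majin* moves from -0.45 to -0.15 and *Terb1* from 0.19 to 0.25 without those mice, while *Terb2*, *Sun1*, *Kash5* and *Spdya* cross 0. Those mice were the highest of the 8 in *Majin* and in the genes that cross 0, so leaving them out by itself raises those values.

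The 7 genes varied more among the 4 wild type than among the 4 *Tra2b-cPEko* mice, and the medians were close without wild type A and B. The coefficient of variation of CPM (SD as a percent of the mean) had a median of 20.1% over the 7 genes among wild type mice and 6.20% among *Tra2b-cPEko* mice. It was larger in wild type for 7 of 7 genes, as for 65.0% of the 15477 genes whose mean reached 1 CPM. The gap was widest for *Kash5*, at 29.5% against 6.20%, and *Spdya*, at 20.1% against 3.86%. It was narrowest for *Sun2*, at 7.85% against 6.24%. The medians over those 15477 genes were 7.38% and 5.62%, over the leptotene and zygotene markers 14.4% and 7.62%, and over the 9 pachytene markers tested 45.5% and 12.0%. Over wild type C and D alone the median of the 7 genes was 6.22%, close to that of the *Tra2b-cPEko* mice, and it was larger than theirs in 4 of 7 genes. Across the 15476 genes that reached the same level in this comparison, the wild type median also fell, to 4.86%. It was then below the *Tra2b-cPEko* median of 5.62%, and wild type was larger for 43.5% of them. An SD over 2 mice tends to be smaller than one over 4, so these values do not show that wild type mice varied less. For the same reason, part of the fall may come from the number of mice. The smaller spread without wild type A and B was thus not particular to the 7 genes. *Kash5* (6.22%), *Spdya* (2.53%), *Terb2* (5.94%) and *Sun1* were then about as even as in *Tra2b-cPEko* mice or more so, while *Sun2* (12.0%), *Majin* (9.08%) and *Terb1* (8.83%) varied more, from 2 mice each. The difference in spread itself was not tested.

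**Figure D3:**
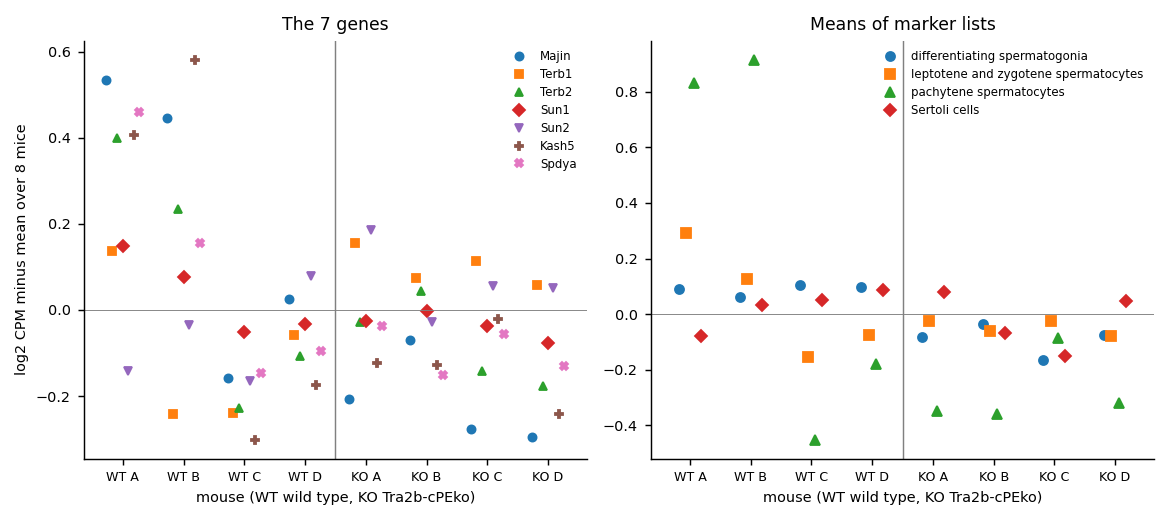
Log2 CPM of the 7 genes (left) and mean log2 CPM of marker lists (right) in each of the 8 mice, each centred on its own mean over the mice. Wild type A and B are high in the pachytene markers and in *Majin*, *Terb2*, *Kash5* and *Spdya*, whereas *Terb1* and *Sun2* have their highest values in *Tra2b-cPEko* A.

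Because whole-testis levels can vary with the number of spermatocytes, each member was also set against other transcripts of the same library. The log2 ratio of *Majin* to *Terb2* was 1.10, 1.17, 1.03 and 1.09 in wild type A to D and 0.78, 0.85, 0.83 and 0.84 in *Tra2b-cPEko* A to D. Wild type mice that differed widely in the level of both genes thus had nearly the same ratio, and each was above every *Tra2b-cPEko* mouse. The difference of the means was -0.27 (SD 0.059 and 0.030), with an exact two-sided permutation p of 0.0286, the smallest that 4 mice against 4 allow.

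For *Majin* against *Terb1* the log2 ratio was -0.52, -0.23, -0.84 and -0.83 in wild type A to D and -1.28, -1.06, -1.31 and -1.27 in *Tra2b-cPEko* A to D. The genotypes did not overlap, and the difference was -0.63 (exact permutation p = 0.0286). The ratios to *Sun1* and *Sun2* differed by -0.35 and -0.56 (exact permutation p = 0.0571 for each), that to *Spdya* by -0.24 (exact p = 0.0857) and that to *Kash5* by -0.17 (exact p = 0.143), all with overlap. Of the 6 ratios, whose p-values are unadjusted, 2 separated the genotypes, while the ratio of *Majin* to any other gene tested did so for 14.8% of 19103 genes. Without wild type A and B the differences to *Terb2* and *Terb1* were -0.24 and -0.40. Those to *Sun1*, *Sun2*, *Kash5* and *Spdya* were then -0.15, -0.26, -0.26 and -0.17. Leaving mice out cannot undo a separation seen over all mice, so this comparison does not check the 2 separations. All 6 ratios share the values of *Majin*.

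**Figure D4:**
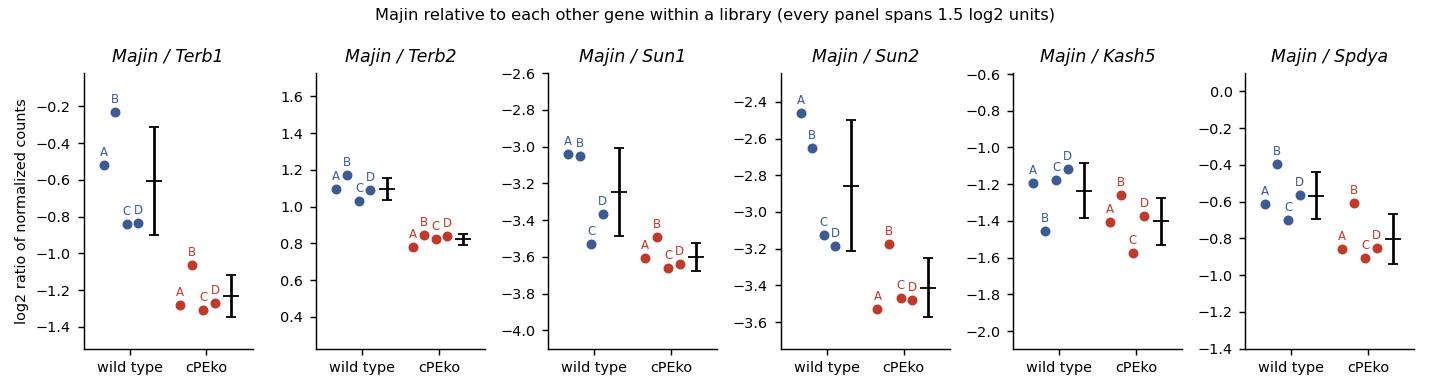
Log2 ratio of *Majin* to each of the other 6 genes within a library, with points for the mice by replicate letter (wild type blue, *Tra2b-cPEko* red) and bars for mean and SD (n = 4). The genotypes separate in the ratios to *Terb1* (difference -0.63) and *Terb2* (-0.27) and overlap in the other 4.

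The same was done against genes of early meiotic prophase. These were the 21 leptotene and zygotene markers, among them *Sycp1*, *Sycp3*, *Dmc1* and *Spo11*. Their mean log2 CPM was subtracted from the log2 CPM of each member in the same library. On this scale *Majin* was at -1.96, -1.89, -2.21 and -2.10 in wild type A to D and at -2.39, -2.21, -2.46 and -2.42 in *Tra2b-cPEko* A to D. *Terb1* was at -1.44, -1.66, -1.37 and -1.27 in wild type and at -1.10, -1.15, -1.15 and -1.15 in *Tra2b-cPEko* mice. *Majin* was lower and *Terb1* higher in every *Tra2b-cPEko* than in every wild type mouse, although wild type C (-2.210) and *Tra2b-cPEko* B (-2.214) nearly met in *Majin*. The differences were -0.33 for *Majin* and 0.30 for *Terb1* (exact permutation p = 0.0286 for each, the smallest possible). Against this reference 4.76% of all genes tested did not overlap, and 2 of the 7 members did not.

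The other 5 members overlapped relative to the leptotene and zygotene markers. Their differences were -0.06 for *Terb2*, -0.16 for *Kash5*, -0.09 for *Spdya*, 0.02 for *Sun1* and 0.23 for *Sun2*, with exact permutation p between 0.0571 and 0.714. Without wild type A and B the differences were -0.21 for *Majin* and 0.18 for *Terb1*. They were 0.02 for *Terb2*, 0.04 for *Kash5*, -0.04 for *Spdya*, -0.06 for *Sun1* and 0.04 for *Sun2*. Genotypes separated over all mice stay separated when mice are left out, so that comparison does not check the separation of *Majin* and *Terb1*. The choice of reference mattered. With the pachytene markers as reference, *Majin* differed by 0.13 with overlap and *Terb1* by 0.76 (exact permutation p = 0.0571). With the 5 differentiating spermatogonia markers, which were themselves lower in *Tra2b-cPEko* testes, *Majin* differed by -0.25 (exact p = 0.314) and *Terb1* by 0.38 (exact p = 0.0286). *Terb1* was thus higher against all 3 references, and *Majin* lower against 2 of them. The other 2 references also had lower means in *Tra2b-cPEko* testes, although their values overlapped between the genotypes. The leptotene and zygotene mean was 6.31 in wild type and 6.21 in *Tra2b-cPEko* mice, with 17 of 21 markers lower. Of the 9 pachytene markers, 8 were lower. A gene of unchanged level would therefore also be higher against each reference, and the differences of *Terb1* include that part.

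Levels of different genes were compared per kilobase of the Ensembl canonical transcript. The order of the genes depends on this choice of length. Exons merged over all annotated transcripts span 8408 bases for *Kash5* and 11250 for *Sun1*, against canonical transcripts of 2.298 and 4.567 kb. For *Majin* they span 1867 bases against 1.665 kb. In wild type testes the order was *Sun1* (40.1 ± 2.65 CPM per kb), *Sun2* (36.4 ± 2.86), *Kash5* (20.4 ± 6.01), *Spdya* (15.0 ± 3.01), *Majin* (11.8 ± 2.65), *Terb1* (9.99 ± 1.28) and *Terb2* (4.28 ± 0.867), each with the SD over 4 mice. Between *Sun2* and *Kash5* and between *Terb1* and *Terb2* the ranges of mean ± SD did not overlap, and those of all other neighbours did. In *Tra2b-cPEko* testes *Sun2* (39.9 ± 2.49 CPM per kb) and *Sun1* (38.1 ± 0.820) changed places within their spread. There *Terb1* (11.4 ± 0.347 CPM per kb) was above *Majin* (8.61 ± 0.625) without overlap of these ranges, and *Kash5* (16.5 ± 1.02), *Spdya* (13.0 ± 0.503) and *Terb2* (3.80 ± 0.273) kept their places. The lowest transcript of the anchor by length was thus *Terb2* in both genotypes. The levels of the SUN genes include whatever somatic cells of the testis contribute.

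Profiles over the 8 mice were compared by the root mean square difference of centred log2 CPM, in which a smaller value means more alike. Genes that vary little have small distances to many others, so the values depend on how much a gene varies and are not comparable between members. For *Majin*, the distances to the other members ran from 0.14 for *Terb2* and 0.15 for *Kash5* to 0.37 for both *Terb1* and *Sun2*. Of 15470 other genes, those most like *Majin* were *Fam184a* (0.085), *C2cd6* (0.088) and *Rhox2a* (0.088). Those most like *Spdya* were *Poln* (0.040), *Sycp2* (0.043), an axial element gene of the synaptonemal complex, and *Hormad2* (0.056), which marks unsynapsed axes. *Terb2* was nearest to *Hsf2bp* (0.056), a meiotic recombination gene, *Magea4* (0.067) and *Asf1b* (0.069), a histone chaperone gene. *Kash5* was nearest to *Tex101* (0.067), which encodes a germ cell surface protein, the glucose transporter gene *Slc2a3* (0.074) and *Lyrm7* (0.083).

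*Terb1* was nearest to *Bco2* (0.039), a carotenoid oxygenase gene, *Fam228b* (0.059) and *E130112N10Rik* (0.061). *Sun1*, whose level varied little, was nearest to *Ccdc58* (0.017), the ribosomal protein gene *Rpl31* (0.019) and *Fam160a2* (0.020). *Sun2* was nearest to *B4galnt1* (0.032), the vesicle sorting gene *Vps18* (0.035) and *Tmem250-ps* (0.037).

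The windows before the start sites of *Terb1* and *Spdya* are shown because these members had log2 fold changes of opposite sign, although edgeR called neither. The sign of *Spdya* turned without wild type A and B (log2 fold change 0.03). Of the windows at hand, those of *Terb1* and *Spdya* also reached least far past the annotated start of their own gene. They are RefSeq sequences of GRCm38.p6 that matched GRCm39 letter for letter, 250 bases each, 5′ to 3′ on the strand of the gene, with motif matches in capitals. Motifs searched on both strands were the E2F motif GCGGGA, the MYB motifs CAACNG with its variant TAACNG, the NF-Y motif CCAAT, the E-box CACGTG and the STRA8 motif core CCTCAG. On the opposite strand the E2F motif reads TCCCGC, the NF-Y motif ATTGG and the MYB motifs end in GTTG or GTTA.
*Terb1*, chr8:105236520-105236769, reverse strand: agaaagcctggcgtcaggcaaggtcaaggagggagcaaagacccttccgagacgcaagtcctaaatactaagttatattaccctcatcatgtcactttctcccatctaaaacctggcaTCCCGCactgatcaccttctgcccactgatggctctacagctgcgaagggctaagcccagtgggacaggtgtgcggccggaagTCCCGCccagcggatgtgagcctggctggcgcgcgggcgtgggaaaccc
*Spdya*, chr17:71858806-71859055, forward strand: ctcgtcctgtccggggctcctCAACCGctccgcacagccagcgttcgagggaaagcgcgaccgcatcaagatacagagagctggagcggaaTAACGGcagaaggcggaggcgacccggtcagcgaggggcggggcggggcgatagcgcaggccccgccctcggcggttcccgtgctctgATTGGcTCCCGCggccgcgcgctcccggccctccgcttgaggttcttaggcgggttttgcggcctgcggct

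The *Terb1* window held the E2F motif at 2 places and no other motif searched, and the *Spdya* window held 1 match each to the E2F motif, both MYB motifs and the NF-Y motif. Among all 32851 windows, 16.9% hold the E2F motif, 29.3% and 19.8% the MYB motifs in the order given, 33.8% the NF-Y motif, 6.02% the E-box and 22.3% the STRA8 motif core, so matches are common. Over all 6 windows of members (*Sun1* has 2), 3 held the E2F motif, 4 the NF-Y motif, 2 each MYB motif, 1 the STRA8 motif core and 0 the E-box. A match of letters is a description and not evidence of binding.

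The genes that the complex works with were described from 4 lists. None of their tested genes was called by edgeR. Among the 7 shelterin genes, whose products coat telomeric DNA and hold the docking site of TERB1, 2 were higher and 5 lower, with a median log2 fold change of -0.0088. The highest was *Terf1*, which encodes TRF1, the partner of TERB1, at 31.8 ± 0.709 CPM in wild type testes (SD, n = 4) against 33.4 ± 1.85 CPM (log2 fold change 0.07, adjusted p = 0.559 from edgeR). The lowest was *Acd*, encoding TPP1, at 35.1 ± 3.78 and 30.2 ± 0.520 CPM (log2 fold change -0.22, adjusted p = 0.191 from edgeR). It was the only shelterin gene whose genotypes did not overlap, beside 8.54% of all genes tested. When wild type A and B were left out, 3 were higher and 4 lower with a median of -0.049 and 0 called by edgeR (0 at an unadjusted p under 0.05), and *Acd* was at -0.10. In the full comparison *Acd* and *Tinf2* (-0.19), encoding TIN2, were the 2 with an unadjusted edgeR p under 0.05. Over all genes tested, 7.07% reached this as lower.

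Of 18 genes of other LINC and nuclear envelope proteins 17 were tested, and *Sun5*, a spermatid gene, had 1 read in all libraries together. There were 9 higher and 8 lower genes with a median of 0.0090, of which 3 as higher and 1 as lower had an unadjusted edgeR p under 0.05. Over all genes tested, 8.22% reached this as higher and 7.07% as lower. The highest was *Syne1*, encoding nesprin-1, a broadly expressed KASH protein that is prominent in muscle, at 65.8 ± 9.18 CPM in wild type testes against 86.7 ± 8.02 CPM. Its log2 fold change was 0.40 (adjusted p = 0.134 from edgeR and 0.00810 from DESeq2). *Syne2*, encoding nesprin-2, was at 709 ± 61.3 and 845 ± 35.2 CPM (log2 fold change 0.25, adjusted p = 0.105 from edgeR and 0.00922 from DESeq2). The genotypes overlapped for neither gene, as for 8.54% of all genes tested, and DESeq2 called 1.66% of its genes as higher. The log2 fold changes without wild type A and B were 0.39 for *Syne1* and 0.16 for *Syne2* (adjusted p = 0.449 and 0.363 from edgeR), and 7 genes of the list were then higher and 10 lower, with a median of -0.023. The lowest gene whose mean reached 1 CPM was *Banf1*, encoding a chromatin-to-envelope tether (log2 fold change -0.13, adjusted p = 0.334 from edgeR).

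Of the somatic cell lists, some lay in the same direction as *Syne1* and *Syne2* and some did not. All 6 peritubular myoid markers were higher in *Tra2b-cPEko* testes, with 0 called by edgeR (2 at an unadjusted p under 0.05) and a summed level of 904 to 1029.7 CPM among wild type mice against 963 to 1178 CPM. All 8 macrophage markers were higher as well, with 0 called (5 at an unadjusted p under 0.05) and sums of 120.3 to 140.9 and 145 to 173 CPM. The 7 Leydig cell markers, of which 6 were higher and 1 lower, summed to 369.6 to 451.6 CPM and 423 to 639 CPM in the same order. Their median log2 fold change was 0.46, the largest of the somatic lists, with 0 called by edgeR and 2 higher at an unadjusted p under 0.05. Of the 10 Sertoli cell markers 3 were higher and 7 lower (median log2 fold change -0.033), with 1 lower at an unadjusted p under 0.05, and all 6 endothelial markers were higher (median 0.049). Over all genes tested, 8.22% had an unadjusted edgeR p under 0.05 as higher and 7.07% as lower. The part of these cell types in the nesprin result was not tested.

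Of 20 dynein and dynactin genes, which supply the motor that KASH5 recruits, 19 were tested, 8 higher and 11 lower, with a median of -0.02 and none under an unadjusted p of 0.05. The highest was *Dynll2* (log2 fold change 0.12) and the lowest *Dctn3* (-0.09), and the adjusted p from edgeR were 0.346 and 0.551. The light chain gene *Dynlrb2* did not pass the filter, with 41, 48, 7 and 14 reads in wild type A to D and 10, 1, 8 and 4 in *Tra2b-cPEko* A to D. Its reads, named here after they were seen, were highest in the same wild type mice A and B as the pachytene markers. Of 9 genes of CDK2 and its partners, 4 were higher and 5 lower with a median of -0.01 and none under an unadjusted p of 0.05, from *Ccne2* (-0.17), a cyclin E gene, to the CDK inhibitor gene *Cdkn1a* (0.12), with adjusted p of 0.436 and 0.751 from edgeR. With wild type A and B left out these lists had 7 higher and 12 lower genes (median -0.0039) and 5 higher and 4 lower genes (median 0.0035), again with 0 called by edgeR and 0 at an unadjusted p under 0.05. *Cdk2* itself was at 158.3 ± 3.97 and 155.6 ± 6.74 CPM (log2 fold change -0.03, adjusted p = 0.824 from edgeR).

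**Figure D5:**
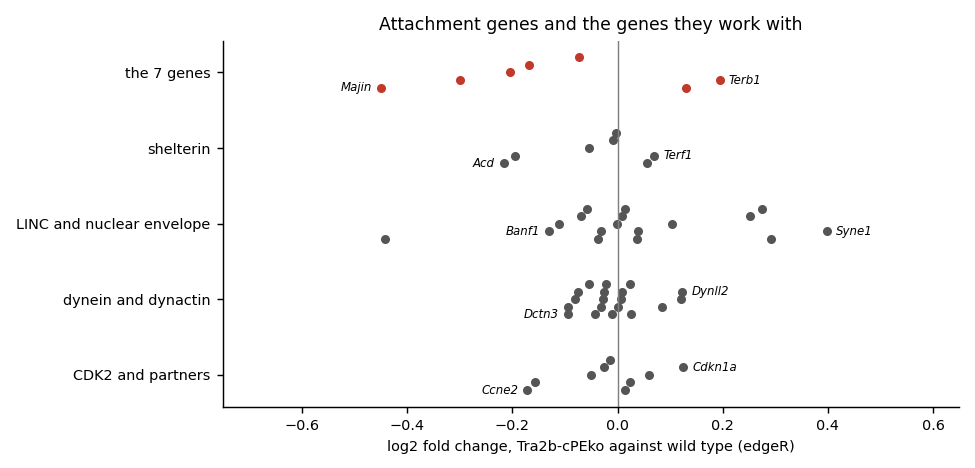
Log2 fold changes from edgeR, *Tra2b-cPEko* against wild type, of the 7 attachment genes (red) and of 4 lists of genes they work with (grey), with points stacked vertically only to keep them apart and the extremes among genes whose mean reached 1 CPM named. *Majin* (-0.45) and *Terb1* (0.19) are the extremes of the 7 genes, and *Syne1* (0.40) is the highest gene of the 4 lists.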

How the data were processed

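Testes of 8 mice were measured by paired-end sequencing of stranded mRNA libraries. The authors deposited raw counts per gene, 1 table per mouse, and these were used without change. The submitters' processing notes name HISAT2 2.2.1, SAMtools 1.7.1, HTSeq 2.0.2 and deepTools 3.5.1 with GRCm39, while the paper's methods describe Salmon quantification. The tables end with 5 summary lines of the HTSeq kind, which hold between 31.0% and 33.6% of the reads and were left out. Whether reads were counted by strand is not given in the sources used here.

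Groups come from the genotype labels. The methods state that the mice were independent. Counts were fitted in R 4.3.3 with edgeR 4.0.16: filterByExpr (minimum count 10, minimum total 15), TMM factors, robust dispersions and the quasi-likelihood test with genotype as the only term, with Benjamini-Hochberg adjustment over 19104 genes and a threshold of 0.05. CPM are TMM-normalized, and log2 CPM use a prior count of 2. Exact permutation tests are two-sided over 70 arrangements of the mice and cannot give a p below 0.0286. Ratios and values relative to marker lists are differences of log2 CPM within a library. Chi-square values per degree of freedom over all 28 pairs of libraries were 5.78 to 21.6, so no library was a copy of another. Alternatives were DESeq2 1.42.0, limma-voom (limma 3.58.1), other normalization factors, filters, thresholds and reference lists, a replicate block, a covariate and fits without single mice. Chosen after seeing the data were the DESeq2 fits and ratios that leave out a mouse, and everything without wild type A and B. DESeq2 was not run without both of these mice. The scripts were tested on simulated data.

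The members and gene lists were chosen with earlier results of these data known. Named genes are the 7 members, the highest and lowest gene of each of 4 pathway lists with a mean of at least 1 CPM, and the 3 genes with the profile nearest to each member. *Tinf2*, *Syne2*, *Cdk2*, *Dynlrb2*, *Sohlh1*, *Spata16* and *Acr* were named after their values were seen. Positions come from GENCODE on GRCm39. Copies were searched with BLAST+ 2.17.0 at 95% identity and 20% of the transcript's length, and those found were genes that overlap a member's own locus. *Majin* and *Terb2* had no matching RefSeq window. Figures were drawn with Python 3.11.15 and matplotlib 3.10.9. Splicing was not analysed here.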

Additional observations from a re-analysis of the deposited data

How the results depend on the processing

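Under 17 alternatives (tools, normalization, filters, robust estimation, block, covariate and single mice left out) the log2 fold changes of all 7 members kept their direction, and 1 member was called in 1 of them, *Majin* with DESeq2. Without wild type A and B, *Terb2* (0.094), *Sun1* (0.0086), *Kash5* (0.11) and *Spdya* (0.032) turned. These were the highest mice in each of those genes, so leaving them out by itself raises the fold changes. Relative to the leptotene and zygotene markers, *Terb2* (0.024), *Kash5* (0.042) and *Sun1* (-0.060) turned and *Sun2* (0.043) shrank in that comparison, *Sun1* also turned without wild type A and lay between -0.019 and 0.062 without single mice, and the ratios of *Majin* to *Terb1*, *Sun1* and *Sun2* shrank to -0.40, -0.15 and -0.26. With pachytene markers as reference *Majin* (0.13), *Terb2* (0.41), *Kash5* (0.30) and *Spdya* (0.37) turned and *Terb1* (0.76) lost its separation. With differentiating spermatogonia markers *Terb2* (0.028) turned, *Majin* (-0.25) lost its separation and *Sun2* (0.31) gained it.

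Genes called over the whole table numbered 30 with edgeR, 507 with DESeq2, 58 with upper-quartile factors, 123 without the filter, 14 at a mean count of at least 50, 12 without robust estimation, 67 with the replicate letter as a block, 48 with the leptotene and zygotene mean as a covariate, and 156 and 3 at thresholds of 0.1 and 0.01. Without each mouse they lay between 3 and 84 with edgeR, and with DESeq2 at 214, 213, 1025 and 434 without wild type A to D and 235, 540, 110 and 226 without *Tra2b-cPEko* A to D. EdgeR called 1 without wild type A and B. Members called lay between 0 and 2 and genes of the 4 lists called between 0 and 6 without single mice. DESeq2 called 2 of the latter, the fit without the filter 1 and the block 2. The cause of these differences was not tested.

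The replicate letters pair the samples only by name: with the letter as a replicate block 0 members and 2 list genes (*Syne1* and *Syne3*) were called, *Majin* had an adjusted p of 0.0971 from edgeR, the correlations of same-lettered mice were 0.03, -0.14, -0.04 and 0.12 for A to D, and 2 of 8 libraries correlated best with their own letter. Each member had at least 276 reads per library, and the effect of depth on the calls was not tested.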
